A study of Caenorhabditis elegans with 23 samples.

Results

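The comparison described here is that of gene expression in N2_Star worms with N2 worms, measured as mRNA counts per gene in 3 N2_Star libraries and 3 N2 libraries of whole Caenorhabditis elegans. Of the 46904 WormBase gene IDs in the mRNA count table, 13983 passed a filter on reads set over all 12 of its libraries and were tested. They are taken here as the expressed genes, although 17 of them had no count in the 6 libraries compared. The same filter on those 6 libraries alone kept 13480. N2 is the reference laboratory strain of the species, and N2_Star carries its name with the addition Star, which no label explains. The same table holds 3 libraries each of MY16, a wild isolate, and MY16_Star, which share the estimate of the spread and are used below where they bear on a gene. All 4 groups were whole adult animals at day 1 of adulthood, grown at 20 °C with E. coli OP-50 as food. Replicates are biological according to the design text, but no label says how the cultures of a group were kept apart, so the p-values measure the spread between these samples. No genotype, allele or treatment is given for any of the 4 groups.

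In whole adult worms most RNA comes from a few tissues. The germline supplies oocytes with maternal mRNA, the intestine makes yolk protein and digestive enzymes, and the epidermis, called hypodermis in the worm, secretes the collagen cuticle and, during larval molts, a set of matrix proteins and proteases that replace it. Small RNAs, many of them antisense to the genes they silence, pass from parents to offspring in this species and act through Argonaute proteins, and the title of the study concerns their inheritance without the nucleus. In a bulk sample of this kind, fewer cells of a tissue and less RNA per cell cannot be told apart.

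The 6 libraries held 11797329 to 23150198 reads counted in genes, and expression is given as CPM, counts per 1000000 gene counts, scaled between libraries by the trimmed mean of M values (TMM). At these depths 3 reads correspond to 0.127 to 0.246 CPM. N2_Star replicate 1 stood apart from the other 5 libraries. Its correlation with the other N2_Star libraries over log2 CPM of the tested genes was 0.931 and 0.937, against 0.987 between N2_Star replicates 2 and 3 and 0.983 to 0.991 among the N2 libraries. In it 1193 genes were more than 2-fold above, and 1497 more than 2-fold below, the mean of the other N2_Star libraries. Results are therefore given with it and, where they move, without it.

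Few single genes separated N2_Star from N2. edgeR's quasi-likelihood test, with Benjamini-Hochberg adjustment over all tested genes and a threshold of 0.05, called 17 genes higher and 4 genes lower in N2_Star. These 21 genes are 0.15% of those tested, with 0.122% called higher and 0.0286% called lower, and their adjusted p-values lay between 0.0123 and 0.0400. In all 21 the 3 N2_Star libraries lay on 1 side of the 3 N2 libraries, and 20 of them differed by more than 2-fold. Before adjustment 1698 genes had a p under 0.05. Among those with a difference of more than 2-fold, 796 were higher and 62 lower in N2_Star. The median log2 fold change over all tested genes was -0.01. The calls were lost when an N2 library or the MY16 groups were left out of the fit: leaving out N2 replicate 1, 2 or 3 left 0 calls by edgeR, with 1384, 1146 and 1327 genes at an unadjusted p under 0.05, and a fit of the N2_Star and N2 libraries alone also gave 0, with 1436 at an unadjusted p under 0.05 and a smallest adjusted p of 0.0535. Leaving out N2_Star replicate 1 gave 177 calls, which included all 21, leaving out replicate 2 or 3 gave 50 and 33, and DESeq2 on all libraries called 387, again with all 21 among them.

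**Figure D1:**
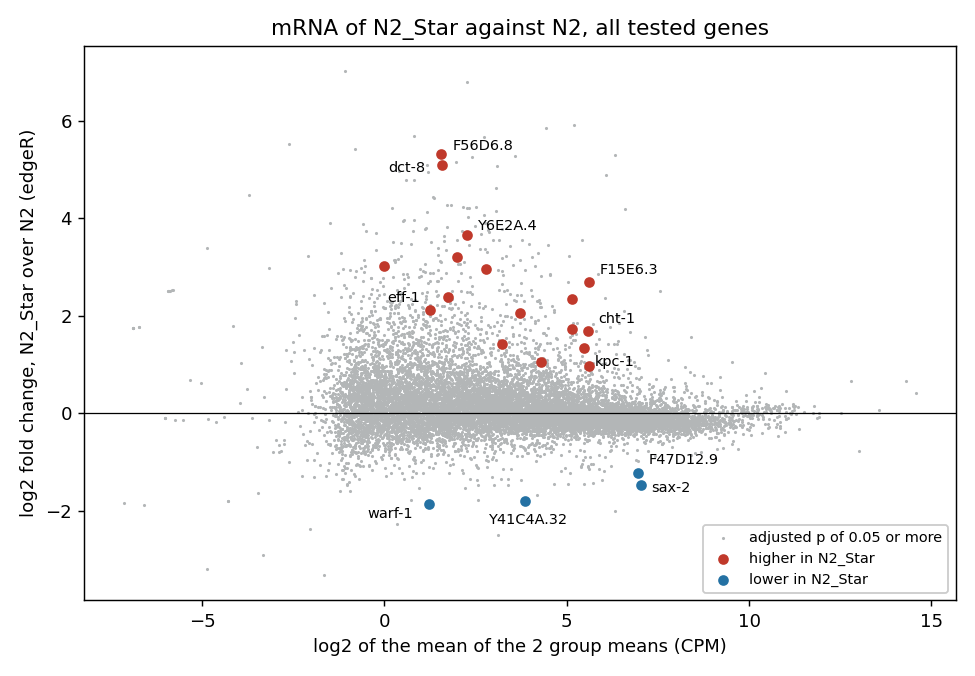
Each point is 1 of the 13966 tested genes with a count in the 6 libraries, placed by its level (horizontal axis, log2 of the mean of the N2_Star and N2 mean CPM) and by its difference (vertical axis, log2 fold change of N2_Star over N2). The 17 red genes passed the test as higher and the 4 blue genes as lower in N2_Star. The grey points spread further upward than downward at low levels.

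The 2 largest differences among the called genes were in a pair of neighbours on chromosome IV, F56D6.8 and dct-8. dct-8 carries the name of a class of genes controlled by the transcription factor DAF-16 and isolated for their effect on germline tumours. F56D6.8 had 6.0, 5.22 and 6.10 CPM in N2_Star, against 0.250, 0.0821 and 0.0847 CPM in N2. dct-8 had 6.70, 5.39 and 5.32 CPM in N2_Star, against 0.250, 0.246 and 0.0424 CPM in N2. Both genes were thus near the limit of detection in every N2 library, where they had between 1 and 4 reads, and clearly above it in every N2_Star library, including replicate 1. The log2 fold changes were 5.32 ± 0.63 (SE) for F56D6.8 and 5.09 ± 0.65 for dct-8, each with an adjusted p of 0.0123. F56D6.8 lies at IV:3894058-3894430 and dct-8 at IV:3895070-3895506 in RefSeq's WBcel235, with 640 bases between them. F56D6.9, 732 bases to the other side of F56D6.8, had 12.2, 3.46 and 2.56 CPM in N2_Star, against 0.749, 0.328 and 0.212 CPM in N2, and did not pass the test (adjusted p = 0.0805).

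Another stretch of chromosome IV held F15E6.3 (IV:4294895-4295689), which had 43.7, 89.5 and 118 CPM in N2_Star, against 17.5, 13.7 and 7.5 CPM in N2. It rose by 2.70 ± 0.43 on the log2 scale (adjusted p = 0.0350). Its neighbour dct-7, of the same class by name as dct-8, had 3.83, 8.28 and 12.5 CPM in N2_Star, against 0.999, 0.657 and 0.212 CPM in N2, and narrowly missed the threshold (adjusted p = 0.0535). F15E6.10, which lies between them, had 1.06, 1.76 and 0.935 CPM in N2_Star, against 0, 0.164 and 0.0847 CPM in N2. F15E6.4 also lies between them and had overlapping groups, with 8.41, 29.2 and 33.6 CPM in N2_Star, against 14.4, 11.2 and 8.77 CPM in N2. F15E6.3, dct-7 and F15E6.10 were thus each above N2 in every N2_Star library. F15E6.9, which shares bases with F15E6.3, and the neighbour lgc-22 had overlapping groups, at log2 fold changes of 0.009 and 0.15. Around C55C3.3 (IV:5685287-5688273) some tested neighbours were higher too and others were not. C55C3.3 itself rose by 2.07 ± 0.27 on the log2 scale, with 22.8, 24.7 and 16 CPM in N2_Star, against 5.49, 4.68 and 4.96 CPM in N2. C55C3.7, 2640 bases away, was read in each N2_Star library (0.857, 1.53 and 0.984 CPM) and in N2 with a single read in replicate 3 (0.0424 CPM). C55C3.6 was also above N2 in every N2_Star library. C55C3.4 and perm-5 had overlapping groups, at log2 fold changes of -0.79 and -0.13. Over all called genes, 82 pairs of a called gene and a tested neighbour lay within 10000 bases. F56D6.8 and dct-8 are each other's neighbours there and share F56D6.9. Counting each neighbour once and leaving out the called genes left 79 neighbours, of which 17 were separated in the same direction as the called gene and 5 the other way. Over all tested genes 9.54% were above and 9.39% below N2 in all 3 N2_Star libraries.

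Several of the higher genes encode enzymes or proteins of the cell surface and matrix. cht-1 encodes a chitinase, an enzyme that cuts the polymer of the eggshell and pharyngeal lining. It had 72.9, 86.6 and 58.3 CPM in N2_Star, against 22, 16.7 and 28.3 CPM in N2, and rose by 1.70 ± 0.24 on the log2 scale (adjusted p = 0.0275). kpc-1 encodes a furin-like proprotein convertase known from the branching of sensory dendrites, and had 79.3, 50.6 and 61.4 CPM in N2_Star, against 31, 23.6 and 21.2 CPM in N2. eff-1 encodes the fusogen that joins epidermal cells into syncytia. It averaged 3.89 ± 0.374 CPM in N2_Star and 0.882 ± 0.164 CPM in N2 (SD, n = 3 each), and the fitted difference was 4.37-fold. mnp-1, of the M1 aminopeptidase family, averaged 13.6 ± 2.2 CPM in N2_Star and 5.01 ± 1.06 CPM in N2. ceeh-2, an epoxide hydrolase, averaged 26.3 ± 2.22 CPM in N2_Star and 12.7 ± 0.999 CPM in N2, with the 3 N2_Star libraries within 24.2 to 28.6 CPM. None of these 5 genes had an N2_Star library below its highest N2 library, and for cht-1, eff-1 and ceeh-2 replicate 1 lay between the other N2_Star libraries.

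The other 8 higher genes are named by their clones only. K07C11.7 had the smallest difference of all called genes, with 70.3, 65.3 and 59.7 CPM in N2_Star, against 32.6, 31.9 and 34.9 CPM in N2, a log2 fold change of 0.97 ± 0.12. C10C6.7 had 8.31, 13.7 and 14.8 CPM in N2_Star, against 1.69, 1.72 and 1.31 CPM in N2. M03A1.8 had 1.61, 1.82 and 1.92 CPM in N2_Star, against 0.0624, 0.328 and 0.254 CPM in N2. In all 3 of these genes the groups were far apart, and in C10C6.7 replicate 1 was the lowest N2_Star library. Wider spreads within N2_Star were seen in T19B10.2, with 59.2, 33.9 and 84.2 CPM in N2_Star and 10.4, 9.85 and 14.6 CPM in N2, and in Y6E2A.4, with 14.7, 4.03 and 8.07 CPM in N2_Star and 1.12, 0.739 and 0.297 CPM in N2. Y41G9A.5 had 2.62, 8.0 and 11.0 CPM in N2_Star, against 0.874, 0.575 and 0.847 CPM in N2, and without replicate 1 its log2 fold change was 3.6 rather than 3.21. T09B4.5 and F46C3.6 were 3.31-fold and 5.26-fold higher in N2_Star. Among all called genes, 8 share bases with another tested gene: cht-1, eff-1, kpc-1, T19B10.2, Y6E2A.4, F15E6.3, F47D12.9 and K07C11.7. The overlapping genes had log2 fold changes between -0.56 (F47D12.3) and 1.74 (Y6E2A.5), and 0 of them passed edgeR's test with Benjamini-Hochberg adjustment. The sources used here do not state whether counting used strand, so reads of such pairs may not be told apart.

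**Figure D2:**
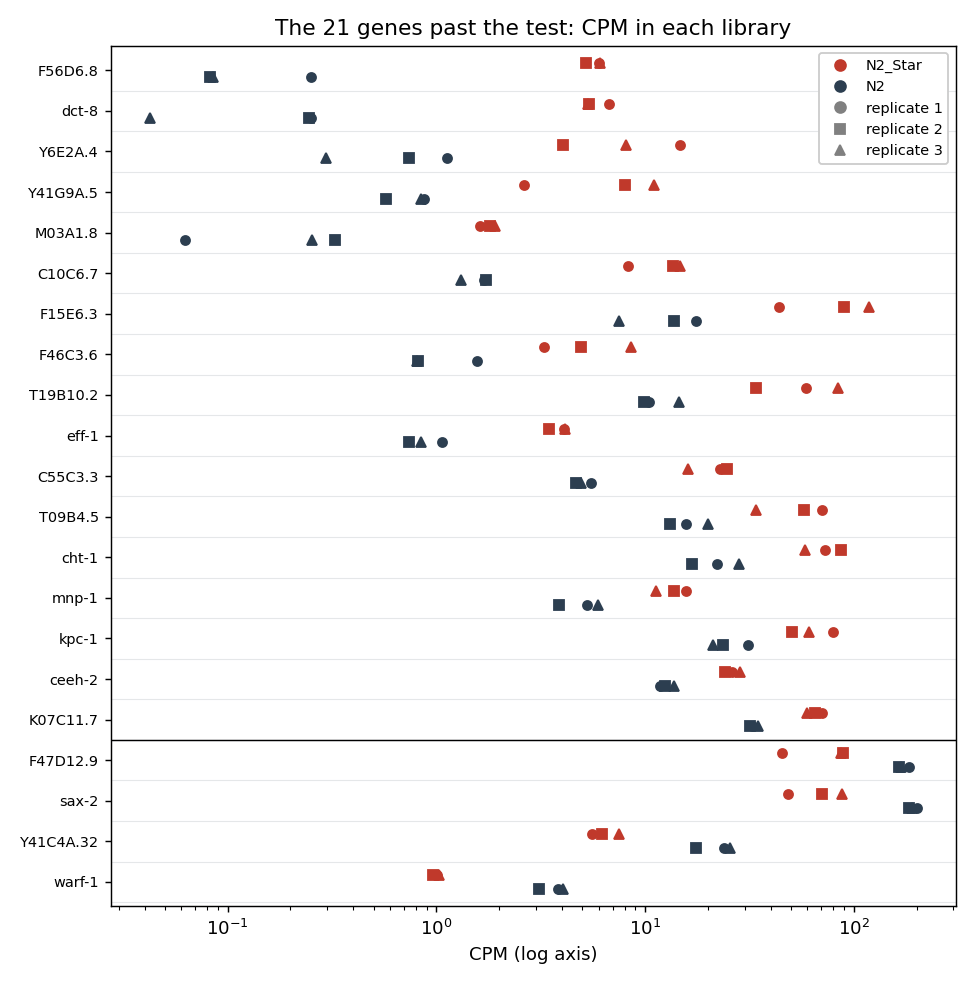
CPM in each of the 6 libraries (horizontal log axis) for the 21 genes that passed the test, with N2_Star in red above N2 in dark blue and the marker shape giving the replicate. Genes above the line were higher and genes below it lower in N2_Star. In every gene the 3 N2_Star points lie on 1 side of the 3 N2 points, from F56D6.8, 40.1-fold higher, to warf-1, at 0.275 of its N2 level.

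Of the 4 lower genes, sax-2 is the best known. It encodes the worm's Furry protein, a large conserved protein that limits the outgrowth of neurites, and lies at III:5109701-5130676. sax-2 had 48.5, 70.9 and 88.2 CPM in N2_Star, against 201, 185 and 191 CPM in N2. All N2_Star libraries were far below the lowest N2 library, and sax-2 fell by 1.48 ± 0.23 on the log2 scale (adjusted p = 0.0350), or by 1.27 ± 0.21 without N2_Star replicate 1. warf-1, a small GTPase of the ARF family, had 1.01, 0.965 and 1.03 CPM in N2_Star, against 3.81, 3.12 and 4.02 CPM in N2. Y41C4A.32 had 5.54, 6.24 and 7.53 CPM in N2_Star, against 23.8, 17.5 and 25.5 CPM in N2. Both fell to a narrow range in N2_Star, at 0.275 and 0.289 of the N2 level. F47D12.9 had 45.5, 89.2 and 87.2 CPM in N2_Star, against 183, 165 and 168 CPM in N2, and replicate 1 was far below the other N2_Star libraries. Its log2 fold change of -1.22 was -0.97 without that library. dpy-17, a cuticle collagen gene 1210 bases from sax-2, had 507, 29.1 and 16.6 CPM in N2_Star, against 11.8, 7.31 and 10.9 CPM in N2, in the other direction and without passing the test (adjusted p = 0.125).

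In 3 of these 4 genes the N2_Star level was close to that of the wild isolate. sax-2 had 47.8, 75.1 and 74.8 CPM in MY16_Star and 53.0, 72.5 and 70.8 CPM in MY16, so that all 6 of these libraries lay below every N2 library, as in 10.9% of all tested genes and 6.93% of the 1313 genes below N2 in every N2_Star library. The same held for Y41C4A.32, with 4.37 to 6.02 CPM in MY16_Star and 3.53 to 6.32 CPM in MY16, and for warf-1, with 0.999 to 1.63 CPM in MY16_Star and 1.04 to 1.53 CPM in MY16. F47D12.9 differed from them, with 153 to 169 CPM in MY16_Star and 161 to 179 CPM in MY16, near the N2 level. sax-2, Y41C4A.32 and warf-1 were also called in MY16 against N2, at log2 fold changes of -1.56, -2.14 and -1.53, a comparison that uses the same N2 libraries.

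**Figure D3:**
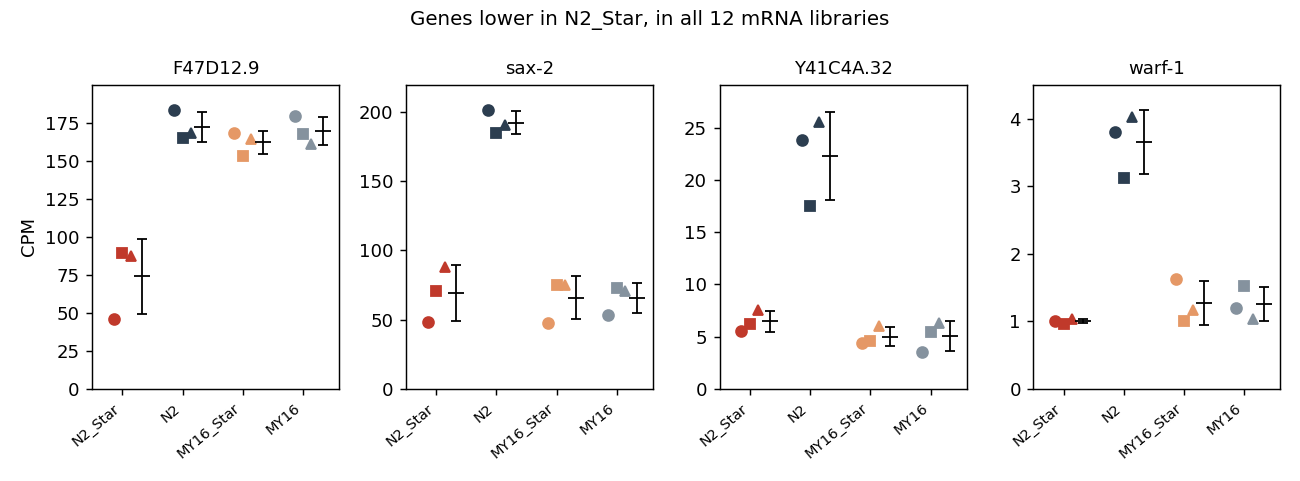
CPM of the 4 genes lower in N2_Star in each of the 12 mRNA libraries, from left to right N2_Star, N2, MY16_Star and MY16 in each panel, with circles, squares and triangles for replicates 1, 2 and 3 and a black bar for the mean ± SD (n = 3). For sax-2, Y41C4A.32 and warf-1 only the N2 libraries are high, whereas for F47D12.9 only the N2_Star libraries are low.

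The higher genes had another pattern across the 4 groups. For 16 of the 17, all 6 MY16_Star and MY16 libraries lay below every N2_Star library, beside 10.8% of all tested genes and 50.6% of the 1334 genes above N2 in every N2_Star library. The 17 were chosen for high N2_Star levels, so this count is a description. cht-1, for example, had 23.2, 20.1 and 13.6 CPM in MY16_Star and 13.9, 16.3 and 14.3 CPM in MY16. The exception was T19B10.2, whose MY16 libraries had 17.9, 37.6 and 31.4 CPM. dct-8 was above its N2 level in both of these groups, with 2.62, 0.999 and 1.49 CPM in MY16_Star and 2.84, 1.22 and 0.829 CPM in MY16. In MY16 against N2, which shares the N2 libraries with the present comparison, 7 of the 21 genes were called, beside 4.03% of all tested genes. In MY16_Star against MY16 edgeR called 3 of all 13983 tested genes (0.0215%), so that a count of 0 among the 21, with a lowest adjusted p of 0.873, says little about them. In that comparison the log2 fold changes of the 21 genes ran from -0.76 to 1.12, and F15E6.3 had the highest, with 27, 26.8 and 32.2 CPM in MY16_Star, against 21, 8.61 and 9.84 CPM in MY16. Whether the N2_Star difference differed from the MY16_Star difference was tested as an interaction: edgeR called 0 genes (0%), with 1830 at an unadjusted p under 0.05, and DESeq2 called 77. All 21 genes had an unadjusted interaction p under 0.05 and an adjusted p between 0.168 and 0.331, so the difference between the isolates was not established for any of them by edgeR.

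Just outside the threshold lay 10 genes with both narrow and wide spreads within N2_Star. After dct-7 came F48D6.4, with 224, 214 and 197 CPM in N2_Star, against 91.2, 63.4 and 58.9 CPM in N2 (adjusted p = 0.0547). kgb-2, a stress-activated kinase of the JNK family, had 7.86, 8.0 and 7.63 CPM in N2_Star, against 2.56, 3.04 and 3.52 CPM in N2. nhr-114, a nuclear hormone receptor that protects the germline when S-adenosylmethionine runs short, had 27.7, 32.1 and 40.1 CPM in N2_Star, against 58.3, 69.1 and 79.2 CPM in N2, the only lower gene among the 10 with the next smallest p-values. acdh-7, an acyl-CoA dehydrogenase, had 118.9, 100.2 and 94.3 CPM in N2_Star, against 68.2, 56.7 and 51.7 CPM in N2. cpt-3, a carnitine palmitoyltransferase, had 32.7, 8.34 and 7.38 CPM in N2_Star, against 0.687, 0.575 and 0.678 CPM in N2, with replicate 1 far above the rest. F09F7.6, F10E9.12, fbn-1 and cnc-7 complete the 10, all higher. In none of the 10 did the groups overlap.

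N2_Star replicate 1 differed from replicates 2 and 3 by sets of genes that were far higher or lower there. Epidermal and stress genes were among those high in replicate 1. mtl-1, a metallothionein, had 391 CPM in replicate 1, against 2.21 and 1.77 CPM in replicates 2 and 3 and 11.2, 0.985 and 1.14 CPM in N2. The cuticle collagen genes dpy-14 and dpy-17 had 442 and 507 CPM in replicate 1, against 13 to 29.1 CPM in replicates 2 and 3. hil-7, a linker histone gene, had 65.2 CPM in replicate 1 against 2.27 and 2.07 CPM. Without replicate 1 the log2 fold change of mtl-1 was -1.15 in place of 4.89, whereas that of dpy-14 was 1.96 and that of hil-7 was 1.87. folt-2, a folate transporter, and the yolk protein gene vit-1 were low in replicate 1. folt-2 had 5.44 CPM there, against 363 and 359 CPM in replicates 2 and 3 and 323 to 548 CPM in N2.

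Another set was high in N2_Star replicates 2 and 3 and held genes of the epidermal response to infection and wounding. cnc-2 and nlp-34, which encode small antimicrobial peptides, had 10.8 and 13 CPM in replicate 2 and 27.9 and 35.3 CPM in replicate 3. In replicate 1 they had 0.252 and 0.857 CPM, and in N2 no more than 0.312 and 0.720 CPM. ora-1 had 28.7 and 97.9 CPM in replicates 2 and 3, against 0.554 CPM in replicate 1 and 0.635 to 0.821 CPM in N2, and srlf-34 followed the same pattern with 64.4 and 149.9 CPM. nlp-29, the peptide gene used as the reporter of this response, had 24.1, 51.2 and 90.9 CPM in N2_Star, against 16.2, 18.7 and 23.6 CPM in N2. None of these 5 genes passed the test over all libraries. Without replicate 1 the test called 164 genes higher (1.15%) and 13 lower (0.0913%). cnc-2, nlp-34, ora-1 and srlf-34 were then called, at log2 fold changes of 6.24, 5.63, 6.44 and 6.49. Whether replicates 2 and 3 or replicate 1 are typical of N2_Star was not tested.

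**Figure D4:**
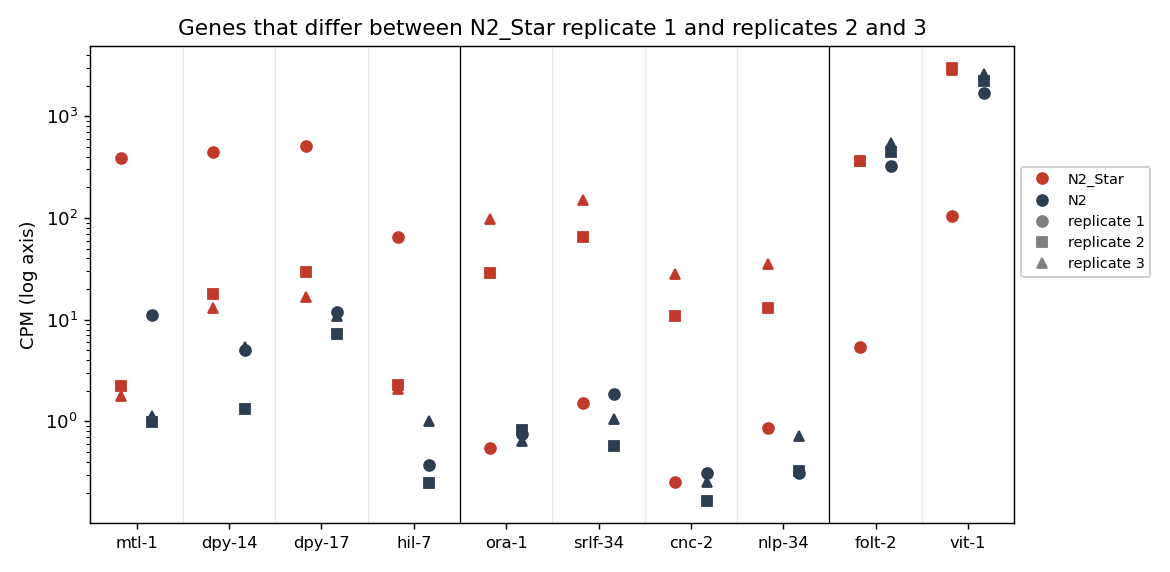
CPM (vertical log axis) of 10 genes that differ within N2_Star, with N2_Star in red left of N2 in dark blue and the marker shape giving the replicate. In the 4 genes on the left N2_Star replicate 1 is highest, at 65.2 to 507 CPM. In the middle 4 it lies with N2 while replicates 2 and 3 are high, and in folt-2 and vit-1 on the right it is far below all other libraries.

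Gene groups were described by 46 lists of pathways, tissues and families. Only 1 list had a called member, sax-2 in the list of neuron wiring and Hippo related genes. There 1 of 21 was called, beside 0.15% of all tested genes. The lists were chosen with earlier results of these data known, so this count is a description. The other called genes, among them dct-8, eff-1 and kpc-1, are members of none of the lists, so the lists do not cover them. The lists are therefore given by how many members had all 3 N2_Star libraries above or below all 3 N2 libraries, to be read against the 9.54% above and 9.39% below of all tested genes. Genes of the molting cycle stood highest. Of 26 tested members, 14 were above N2 in all N2_Star libraries and 0 below, with a median log2 fold change of 1.04 against -0.01 over all genes, and without replicate 1 the median was 1.26, with 17 above and 1 below. fbn-1, a fibrillin-like matrix protein, had 32.5, 21 and 14.6 CPM in N2_Star, against 4.56, 2.13 and 5.80 CPM in N2 (adjusted p = 0.0552). nekl-2, a kinase of endocytosis in the molting epidermis, had 6.30, 7.15 and 7.88 CPM in N2_Star, against 2.12, 3.04 and 3.18 CPM in N2. noah-1, a zona pellucida protein of the temporary sheath that shapes the new cuticle, had 111, 35.2 and 25.9 CPM in N2_Star, against 11.9, 3.78 and 10.4 CPM in N2. mlt-8, mlt-9, mlt-11, noah-2, acn-1, ptr-4 and ptr-10 were separated in the same way, at log2 fold changes from 2.27 for mlt-9 to 3.90 for ptr-4. mlt-10, a classical reporter of molting, was not: it had 8.11, 8.06 and 6.10 CPM in N2_Star, against 5.37, 4.19 and 7.37 CPM in N2. The summed level of the list was 514 to 839 CPM in N2_Star and 358 to 424 CPM in N2.

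Other epidermal genes showed the same direction in part. Among 20 hypodermis and seam genes, 10 were above N2 in all N2_Star libraries and grd-10 below, and without replicate 1 10 were above and 3 below. Without that library 20.4% of all tested genes were above and 20.1% below N2, and list counts without it are to be read against these shares. dlg-1, a scaffold of the apical junction, had 78.4, 54.8 and 61.3 CPM in N2_Star, against 35.6, 33.9 and 40.6 CPM in N2 (adjusted p = 0.0772). wrt-10, a gene of the hedgehog-related warthog family, had 40.5, 8.68 and 6.05 CPM in N2_Star, against 2.19, 1.15 and 2.41 CPM in N2, and wrt-1, wrt-2, wrt-6 and wrt-8 were separated as well. The summed level of the hypodermis list was 460 to 540 CPM in N2_Star and 393 to 458 CPM in N2. Its median log2 fold change was 0.57, or -0.04 with only genes of at least 5 CPM in 3 libraries kept. Of 135 cuticle collagen genes, 20 were above and 6 below, and without replicate 1 44 were above and 8 below. col-76 had 29.8, 14.1 and 14.1 CPM in N2_Star, against 5.12, 5.99 and 7.71 CPM in N2. col-179 lay the other way, with 69.2, 112 and 63.7 CPM in N2_Star, against 138, 162 and 178 CPM in N2. Many collagen genes have close copies, and how the authors' counting shared reads between copies is not given in the sources used here.

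Germline genes lay on the lower side by small amounts. Of 35 oocyte and maternal germline genes, 13 were below N2 in all N2_Star libraries and 0 above, with a median log2 fold change of -0.28. Without replicate 1 the median was -0.11, and 13 were below and 0 above, beside 20.1% of all genes below. Of 16 P granule genes, which form the germline's RNA granules, 7 were below and 0 above, or 7 below and 2 above without replicate 1. glh-1, a Vasa-like helicase of these granules, had 573, 468 and 581 CPM in N2_Star, against 762, 756 and 705 CPM in N2, a log2 fold change of -0.45 ± 0.13 (adjusted p = 0.160). glh-2 had 201, 182 and 259 CPM in N2_Star, against 345, 285 and 281 CPM in N2. egg-2 and egg-3, which act when the oocyte becomes an embryo, were lower by 0.35 and 0.40 on the log2 scale, with no overlap between groups. In replicate 1 the median member of the oocyte list was at a log2 ratio of -0.62 to the N2 mean, against -0.06 and -0.24 in replicates 2 and 3, so most of the size of this difference lay in replicate 1. Of 33 cell cycle and DNA replication genes, 12 were below and 1 above, or 12 below and 3 above without replicate 1, with mcm-2, a subunit of the replicative helicase, at 209, 237 and 220 CPM in N2_Star, against 356, 295 and 264 CPM in N2.

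Yolk, sperm and embryo genes differed from these. The intestine's yolk protein genes vit-2, vit-5 and vit-6, which are among the genes with the most counts, were above N2 in every N2_Star library. vit-2 had 22759, 28127 and 24066 CPM in N2_Star, against 16697, 14492 and 16006 CPM in N2, a log2 fold change of 0.67 ± 0.21 (adjusted p = 0.191). vit-5 had the same log2 fold change. Without replicate 1 all 6 vitellogenin genes were above N2. With all libraries kept, the 6 genes together had 52815, 76647 and 68378 CPM in N2_Star, against 43415 to 48333 CPM in N2. Of 68 sperm genes, 3 were below and 0 above, or 3 below and 9 above without replicate 1. Their median log2 fold change of -0.24 became 0.08 without replicate 1, and in that library the median member was at a log2 ratio of -1.18. Of 23 early embryo genes only 12 had enough reads to be tested. Of these 5 were above and 0 below, or 7 and 0 without replicate 1. elt-7, a GATA factor of the intestine, had 12.4, 15.3 and 13.8 CPM in N2_Star, against 8.62, 6.73 and 8.26 CPM in N2. The early embryo markers pes-10 and vet-6 had overlapping groups. pes-10 had 0.605, 1.08 and 0.443 CPM in N2_Star, against 0.437, 0.164 and 0.805 CPM in N2. vet-6 had 2.57, 6.30 and 3.84 CPM in N2_Star, against 1.06, 1.97 and 3.52 CPM in N2. end-1 and med-1, which act in the first embryonic intestinal cells, were at or near 0 in all 6 libraries and were not tested.

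**Figure D5:**
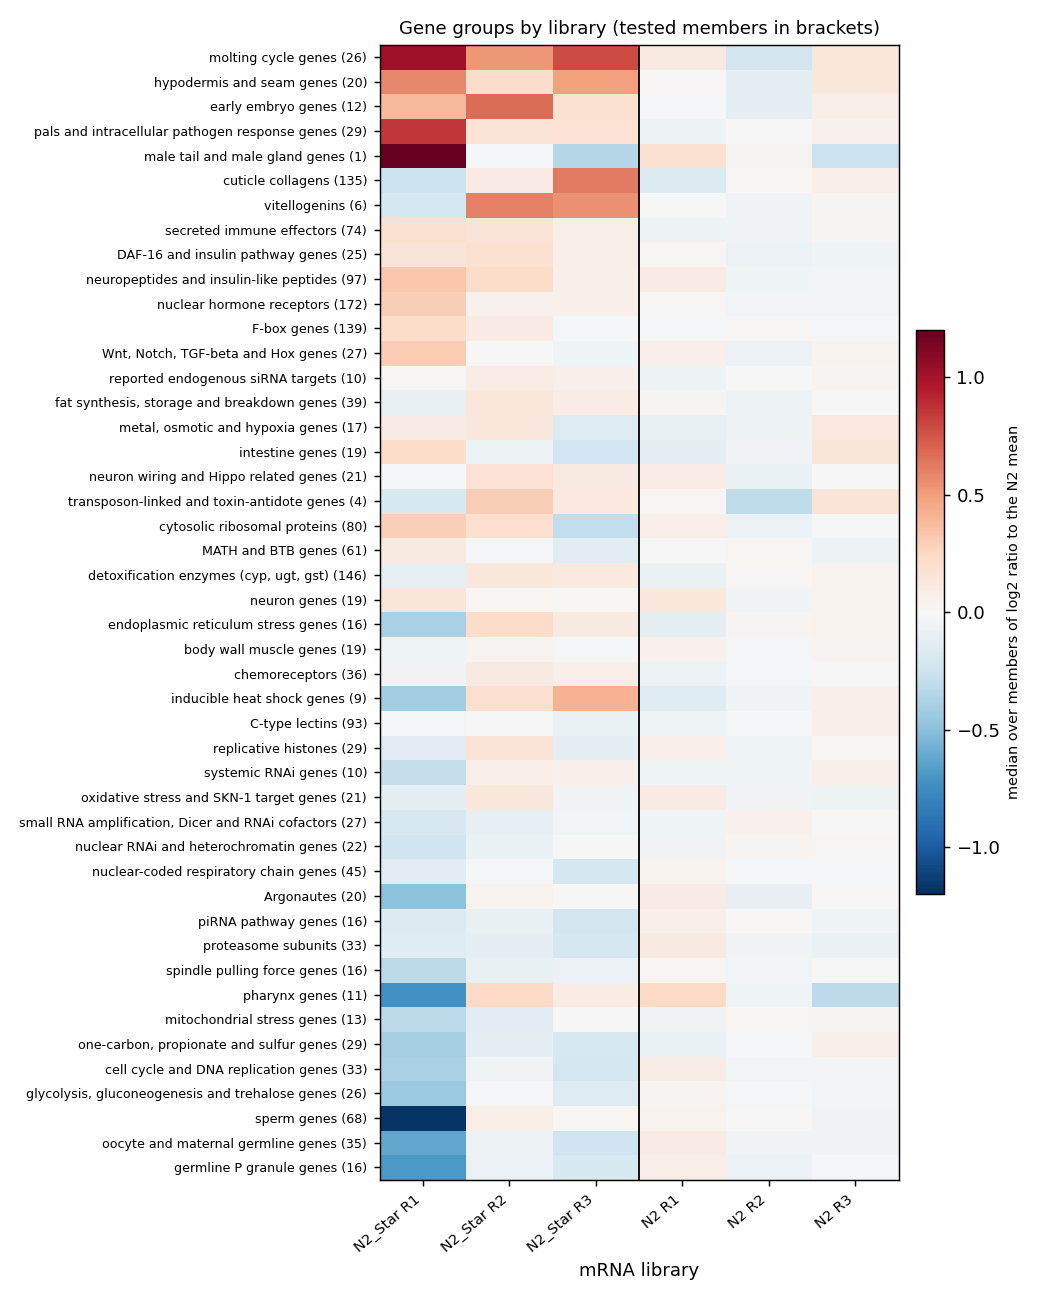
Median over the tested members of each of the 46 lists (rows, number of members in brackets) of the log2 ratio of a library's CPM to the N2 mean, with 0.5 CPM added to both, for the 3 N2_Star libraries on the left and the 3 N2 libraries on the right. Rows run from the highest to the lowest median log2 fold change, and colours stop at 1.2 in either direction. Molting cycle genes are red in all 3 N2_Star libraries, at 1.02, 0.52 and 0.78, whereas for sperm genes only N2_Star replicate 1 is blue, at -1.18.

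Genes of defence and stress were uneven. Of 74 secreted immune effectors, 14 were above and 4 below. Without replicate 1, 25 were above and 8 below, and edgeR called 9 of 77 as higher and 0 as lower, beside 1.15% and 0.0913% of all genes. cnc-7, an antimicrobial peptide gene, had 0.756, 2.5 and 6.89 CPM in N2_Star, against 0.0624, 0.164 and 0.127 CPM in N2 (adjusted p = 0.0594). Of 29 genes of the pals family and the intracellular pathogen response, 6 were above and 0 below at a median log2 fold change of 0.51. Without replicate 1 the count was not one-sided, with 10 above and 6 below at a median of 0.21. pals-37 had 1.97, 0.454 and 0.394 CPM in N2_Star and no read in any N2 library, and pals-26 had 4.03, 0.965 and 7.28 CPM in N2_Star, against 0.187, 0.328 and 0.339 CPM in N2. Of 146 detoxification enzymes of the cytochrome P450, glucuronosyltransferase and glutathione transferase families, 17 were above and 7 below, or 39 above and 14 below without replicate 1. cyp-34A9 had 82.2, 15.9 and 24.6 CPM in N2_Star, against 9.24, 4.84 and 3.18 CPM in N2. Of 21 oxidative stress and SKN-1 target genes, 3 were above and 2 below, with a median log2 fold change of -0.08, or 0.05 without replicate 1. The catalase genes ctl-1 and ctl-2 were among the 3 above, with ctl-2 at 253, 98.9 and 114 CPM in N2_Star, against 83.4, 74.1 and 65.6 CPM in N2. In the list of DAF-16 and insulin pathway genes, 6 of 25 were above and 0 below at a median of 0.31, or 8 and 0 at a median of 0.08 without replicate 1. With only genes of at least 5 CPM in 3 libraries kept, the median of this list was -0.007. dod-3 had 48.1, 18.2 and 23.8 CPM in N2_Star, against 9.05, 6.16 and 3.13 CPM in N2. Inducible heat shock genes had 0 of 9 separated in either direction at a median of 0.01, but without replicate 1 3 were above and 0 below at a median of 0.39, and 1 of 10 was called higher. Of 16 endoplasmic reticulum stress genes 0 were separated, and without replicate 1 6 were above, 1 was below and 3 of 18 were called higher.

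Among signalling and regulatory families, 30 of 172 nuclear hormone receptor genes were above N2 and 2 below, 25 of 139 F-box genes above and 8 below, and 14 of 97 neuropeptide and insulin-like peptide genes above and 3 below. The median log2 fold changes of these lists were 0.22, 0.22 and 0.25, and without replicate 1 they were 0.06, 0.07 and 0.13, with 51 above and 21 below for the nuclear hormone receptors, 38 and 23 for the F-box genes and 25 and 8 for the peptide genes. nhr-67, a receptor of the tailless family, had 1.11, 0.851 and 1.82 CPM in N2_Star, against 0.250, 0.328 and 0.297 CPM in N2. fbxb-88, of the F-box family, had 3.58, 1.76 and 1.28 CPM in N2_Star, against 0.0624, 0.164 and 0.466 CPM in N2. nlp-56, a neuropeptide gene, had 13.1, 5.79 and 3.79 CPM in N2_Star, against 3.00, 1.89 and 1.44 CPM in N2. In nhr-67, fbxb-88 and nlp-56 the groups did not overlap, and none passed the test. his-24, a linker histone gene, stood out of its list with 185, 147 and 72.1 CPM in N2_Star, against 33.8, 25.5 and 41.4 CPM in N2, a log2 fold change of 2.0 ± 0.40 (adjusted p = 0.0791), whereas the median of the 29 histone genes was 0.00.

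Among the genes of small RNA pathways, the subject of the study, none passed the test. prg-1, the Argonaute that binds piRNAs, had 257, 290.1 and 262 CPM in N2_Star, against 371, 334 and 358 CPM in N2, a log2 fold change of -0.40 ± 0.12 (adjusted p = 0.186). hrde-1, the nuclear Argonaute of inherited silencing, had 355, 552 and 556 CPM in N2_Star, against 611, 626 and 691 CPM in N2, and without replicate 1 its log2 fold change was -0.21 in place of -0.40. csr-1, the Argonaute that protects germline transcripts, had 328, 482 and 462 CPM in N2_Star, against 525, 417 and 481 CPM in N2, and its groups overlapped. sago-2, a secondary Argonaute, had 1.11, 0.794 and 0.591 CPM in N2_Star, against 1.5, 1.64 and 2.29 CPM in N2, a log2 fold change of -1.13 ± 0.32 (adjusted p = 0.165). Of 20 Argonaute genes, 6 were below and 0 above at a median log2 fold change of -0.14. Without replicate 1 that count was not one-sided, with 6 below and 5 above at a median of 0.03. Of 16 piRNA pathway genes 4 were below and 0 above, or 6 and 0 without replicate 1, with medians of -0.14 and -0.16. morc-1, a chromatin gene needed for inherited silencing, had 74.4, 80.7 and 93.7 CPM in N2_Star, against 113, 116 and 108 CPM in N2. The dsRNA channel gene sid-1 had a log2 fold change of -0.07, or 0.18 without replicate 1. sid-5, which aids the spread of silencing between cells, lay the other way, with 8.16, 10.04 and 10.48 CPM in N2_Star, against 5.06, 4.68 and 6.48 CPM in N2, a log2 fold change of 0.82 ± 0.23 (adjusted p = 0.162). gpr-1, which pulls on the spindle in the first division and whose overexpression separates the parental genomes, had 13.2, 11.2 and 9.50 CPM in N2_Star, against 14.5, 12.2 and 12.0 CPM in N2, a log2 fold change of -0.19 ± 0.19 (adjusted p = 0.768).

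Housekeeping and metabolism lists had median log2 fold changes from -0.21 for glycolysis, gluconeogenesis and trehalose to 0.15 for fat metabolism. Without replicate 1 the proteasome and respiratory chain medians were -0.15 and -0.10, and that of the oocyte list was -0.11. Small negative medians were thus not confined to the germline lists. Of 80 cytosolic ribosomal protein genes, 0 were separated in either direction, and their median log2 fold change was 0.09. Without replicate 1 it was -0.02, with 1 above and 8 below. Of 33 proteasome subunit genes, 9 were below and 0 above at a median of -0.15, or 17 below and 0 above without replicate 1, with rpt-1 at 338, 352 and 326 CPM in N2_Star, against 446, 385 and 387 CPM in N2. Of 26 genes of glycolysis, gluconeogenesis and trehalose, 10 were below and 1 above, or 10 below and 4 above without replicate 1. hxk-1, a hexokinase, had 205, 270.2 and 291 CPM in N2_Star, against 369.9, 350.2 and 328 CPM in N2. Of 45 respiratory chain genes coded in the nucleus, 7 were below and 0 above, or 15 and 0 without replicate 1. Among fat metabolism genes, 9 of 39 were above and 7 below, or 14 above and 7 below without replicate 1. The lipase gene lipl-2 had 44.1, 6.01 and 10.9 CPM in N2_Star, against 3.81, 1.97 and 1.65 CPM in N2, while hacd-1, a hydroxyacyl-CoA dehydrogenase, had 41, 27.1 and 23.8 CPM in N2_Star, against 87.3, 66.7 and 48.0 CPM in N2. sams-1, which makes S-adenosylmethionine, had 40.1, 128 and 83.7 CPM in N2_Star, against 151, 146 and 199 CPM in N2.

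Marker genes were checked for the tissues that a whole worm holds. The germline markers oma-1, rme-2 and pgl-1, the intestinal marker ges-1, the muscle myosin genes unc-54 and myo-3 and the neuronal gene snb-1 were read in all 6 libraries, with ges-1 the lowest of them at 30.5 to 62.7 CPM. All 4 markers of adult males were under 1 CPM, with lov-1 and pkd-2 at no more than 0.0847 and 0.113 CPM and mab-3 at no more than 0.575 CPM in any library. plg-1 had 0.504, 0.454 and 0.935 CPM in N2_Star, against 0.312, 0.164 and 0.169 CPM in N2, above N2 in every N2_Star library but with too few reads to be tested. The pharyngeal myosin genes myo-1 and myo-2 were low in 1 library only, N2_Star replicate 1, at 8.31 and 8.41 CPM, against 46.4 to 54.5 CPM in N2_Star replicates 2 and 3 and 29.2 to 64.6 CPM in N2. The sperm gene gsp-3 had 6.0, 23.0 and 17.8 CPM in N2_Star, against 18.4, 17.6 and 14.1 CPM in N2. Body wall muscle genes were level, with 0 of 19 above and 1 below and a median log2 fold change of 0.02, or 2 above, 3 below and -0.02 without replicate 1. The part that tissue composition has in the differences above was not tested.

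Small RNA counts of the same groups, in 2 N2_Star and 3 N2 libraries, had 3 genes called of 12241 tested (0.0245%), and none was among the 21. These counts are labelled AS, taken here as antisense to the gene, so small RNA of the sense strand may not be covered. T28B8.1 had 34.7 and 47.2 CPM of small RNA in N2_Star, against 0.761, 0.536 and 0.651 CPM in N2, and its mRNA had 54.1, 118 and 92.2 CPM in N2_Star, against 59.3, 52 and 78.8 CPM in N2. W04B5.3 had 118.8 and 80.9 CPM of small RNA in N2_Star, against 8.96, 7.2 and 8.46 CPM in N2, with overlapping mRNA levels in the 2 groups (log2 fold change -0.06 ± 0.39). T20B3.1 had 33 and 34.3 CPM of small RNA in N2_Star, against 4.98, 5.68 and 9.11 CPM in N2. Its mRNA was at 99.2, 8.85 and 10.4 CPM in N2_Star, against 16, 5.50 and 4.11 CPM in N2, high in replicate 1. In all 3 genes every MY16_Star and MY16 small RNA library lay above every N2_Star library. T28B8.1 had 138 to 204 CPM of small RNA in MY16_Star and 262 to 424 CPM in MY16. W04B5.3 had 141 to 201 CPM in MY16_Star and 292 to 611 CPM in MY16. T20B3.1 had 88.9 to 129 CPM in MY16_Star and 321 to 444 CPM in MY16. Of the 21 genes called in mRNA, 8 were tested in small RNA and 0 were called by edgeR, while 14 had no more than 3 CPM of small RNA in any of the 5 libraries. mnp-1 had the most small RNA counts of the 21, with 258 and 211 CPM in N2_Star, against 224, 210.1 and 279.8 CPM in N2, and no separation. In sax-2 the small RNA was at 14.2 and 10.1 CPM in N2_Star, against 25, 24.1 and 13 CPM in N2, and the groups overlapped. Across the 4 groups, 45 genes (0.368%) had a small RNA interaction of Star and isolate, and C55C3.3 was the one among them that was also called in mRNA here. Its small RNA had 78.2 and 103 CPM in N2_Star, against 31.6, 36.2 and 43 CPM in N2, and 59.5 to 87.9 CPM in MY16_Star, against 242 to 276 CPM in MY16.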

How the data were processed

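The authors deposited whole-number read counts per gene for mRNA (12 libraries, 3 per group) and small RNA (11 libraries, 2 of them N2_Star). The small RNA counts used here are those labelled AS, taken as antisense. Per the submitters' processing notes, cutadapt, FastQC, Bowtie2, HTSeq, DESeq2 and the genome build ce11 were used. Their versions and the strand setting of the counting are not given in the sources used here. Per the labels' protocols, RNA was extracted with TRIzol, and a NEBNext small RNA kit is named for both assays. Rows that name no gene held 7.84% to 17.7% of the reads of the 6 mRNA libraries and stayed out of totals and tests. A failed small RNA sample is ascribed to MY16_Star in the design text, while the sample list and columns are short of an N2_Star one; groups follow the sample list.

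Counts were tested with edgeR 4.0.16 (R 4.3.3; limma 3.58.1): low genes were removed with filterByExpr, libraries scaled with TMM, and glmQLFit and glmQLFTest fitted over all 12 mRNA libraries by group, with Benjamini-Hochberg adjustment over all tested genes. Small RNA was fitted likewise on its 11 libraries. Standard errors are the log2 fold change over the root of F. CPM values are TMM-scaled. DESeq2 1.42.0, 2 other scalings, 2 other filters, the comparison's libraries alone, a replicate block and single libraries left out in turn were alternatives. For N2_Star against N2 only N2_Star and N2 libraries were left out, and for the mRNA interaction each of the 12. The code was tested on simulated data. The replicate numbers were not taken as pairs, since no label ties them and the deviations from the group means correlated at 0.191, -0.015 and 0.123, not over 0.1 in every pair. Of the gene IDs, 44017 matched a symbol in the name table, and 13237 tested genes a location in RefSeq's WBcel235, the assembly also called ce11.

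The genes named are all called genes, the 10 with the next smallest p-values, those that most set N2_Star replicate 1 apart, those called without it, the 10 with the most counts, 8 chosen genes, and in each list its called members or the 2 with the smallest p; a few further members were named after their values were seen. The lists, genes and tests were chosen with earlier results of these data known. The counts without N2_Star replicate 1 in the lists were added after seeing the data.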

Additional observations from a re-analysis of the deposited data

Results flagged for a closer look

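The small RNA of C55C3.3, whose mRNA was higher in N2_Star than in N2, differed between N2_Star and N2 in another way than between MY16_Star and MY16. It had 78.2 and 103 CPM in N2_Star, against 31.6, 36.2 and 43 CPM in N2, a log2 fold change of 1.31 ± 0.21 that did not pass the test (adjusted p = 0.171). It had 80.3, 87.9 and 59.5 CPM in MY16_Star, against 276, 242 and 251 CPM in MY16, and fell there by 1.75 ± 0.19 on the log2 scale (adjusted p = 8.26e-04). The difference between these log2 fold changes, taken as the MY16_Star difference minus the N2_Star difference, was -3.07 ± 0.29 (edgeR interaction, adjusted p = 3.83e-04, 1 of 45 genes called or 0.368% of those tested). The mRNA of C55C3.3 had 3.03, 3.23 and 2.40 CPM in MY16_Star, against 1.54, 2.75 and 2.59 CPM in MY16, and its mRNA interaction did not pass the test (adjusted p = 0.266).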

How the results depend on the processing

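Called genes in mRNA numbered 21 (17 higher, 4 lower). DESeq2 gave 387 (348 and 39), no filter on low counts 233 (218 and 15), a replicate block over all groups 109 (89 and 20), and the N2_Star and N2 libraries alone 0 (0 and 0), with or without the block. Leaving out 1 N2_Star or N2 library gave 0 to 177 (0 to 164 and 0 to 13). It gave 177 without N2_Star replicate 1, 50 and 33 without replicates 2 and 3, and 0 with any 1 of the N2 libraries left out. Leaving out a MY16 or MY16_Star library was not tried for these counts. The other scalings gave 23 and 25 and the stricter filter 22. All 21 genes were called in every fit of all 12 libraries that tested them, and the stricter filter tested 15 of them; without N2_Star replicates 2 and 3, 18 and 14 were called. The interaction in mRNA, 0 calls, gave 77 with DESeq2, 5 with no filter, 1 with the block and 0 to 8 with 1 library left out, 8 of them without N2_Star replicate 1. Small RNA, 3 calls, gave 14 with DESeq2, 123 with no filter, 91 with the block on the 5 libraries alone and 2 to 15 with 1 library left out, 15 of them without N2 replicate 3. The replicate numbers were not taken to pair the samples, since the deviations of same-numbered samples correlated at 0.191 and 0.123 in 2 pairs but at -0.015 in the pair of number 2, and N2_Star replicates 2 and 3 correlated best with another number than their own. The cause of these changes was not tested.

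Some log2 fold changes near 0, or set by N2_Star replicate 1, changed sign. With 1 library left out they ran from -1.15 to 7.01 for mtl-1, -0.17 to 0.79 for swm-1, -1.46 to 0.92 for C50F4.1, -0.15 to 0.010 for hsp-90, -0.19 to 0.068 for hsp-1 and -0.21 to 0.18 for sid-1, with the value without N2_Star replicate 1 the one of other sign. They ran from -1.66 to 0.27 for pcp-3, -1.36 to 0.37 for C39H7.4, -1.59 to 0.42 for R10E8.6, -0.047 to 0.10 for eef-2 and -0.065 to 0.11 for rpl-3. C50F4.1 was at -0.062 with the block and -0.43 with it on the 6 libraries alone. With library totals R10E8.6 was at 0.016 and eef-2 at 0.023, with the stricter filter C39H7.4 at 0.0091, R10E8.6 at 0.033 and eef-2 at 0.054, on the 6 libraries alone R10E8.6 at 0.0081 and eef-2 at 0.028 (0.027 with the block), with median-ratio factors eef-2 at 0.0059 and with no filter rpl-3 at -0.00063. None of these genes was called over all libraries, and C50F4.1, pcp-3, C39H7.4 and R10E8.6 were called as lower without N2_Star replicate 1. Of 644 list medians under the alternatives, 76 moved by more than the spread and 42 did not keep their sign. The 42 include changes from or to a median of 0, among them those of the replicative histones, whose main median was 0.

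Genes with few reads in N2, such as F56D6.8, dct-8 and M03A1.8, have fold changes that rest on 1 to 6 reads a library. The depth of the 6 libraries left levels under 0.127 to 0.246 CPM at no more than 3 reads.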

Other observations

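The 10 genes with the most mRNA counts had log2 fold changes between -0.78 (rrn-3.1) and 0.67 (the yolk protein genes vit-2 and vit-5), and adjusted p-values of 0.191 or more by edgeR. eef-2 and rpl-3, a translation elongation factor and a ribosomal protein, had log2 fold changes of 0.00. eef-1A.1, another elongation factor, had 11961, 13592 and 11878 CPM in N2_Star, against 12578, 11347 and 11568 CPM in N2. The ribosomal RNA gene rrn-3.1 was uneven in both groups, with 9051, 3545 and 5690 CPM in N2_Star, against 18606, 8783 and 4089 CPM in N2.

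By chromosome, IV held the most called genes, 6 of 2278 tested, against 2 of 2244 on I, 2 of 2255 on II, 4 of 2119 on III, 4 of 2496 on V and 3 of 1842 on X. The share over all tested genes was 0.15%. The 6 on IV include the neighbours F56D6.8 and dct-8, 640 bases apart. Whether the share differs between chromosomes was not tested.

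Of 10 genes reported elsewhere as targets of endogenous siRNAs, 3 were above N2 in all 3 N2_Star mRNA libraries and 0 below. Over all tested genes 9.54% were above and 9.39% below. Without N2_Star replicate 1 the list had 3 above and 1 below, beside 20.4% and 20.1% of all tested genes. Its median log2 fold change was 0.16, or 0.06 without replicate 1 and -0.007 without N2_Star replicate 3. Y17D7B.4 had 18.1, 11.9 and 8.91 CPM in N2_Star, against 8.68, 7.55 and 6.57 CPM in N2. In the transposon-linked and toxin-antidote list, the antidote gene zeel-1 had 1.97, 1.3 and 0.935 CPM in N2_Star, against 0.375, 0 and 0.635 CPM in N2. rcan-1 and zip-2, a calcineurin inhibitor and a transcription factor of the immune response, had log2 fold changes of 0.39 and 0.43 with overlapping groups.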
